A study of Mus musculus with 6 samples.

Results

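The clade A serpins of liver were examined in hepatic mRNA from WT and *Pai-1*+/- mice. The 10 members, *Serpina1a*, *Serpina1b*, *Serpina1c*, *Serpina1d*, *Serpina1e*, *Serpina3k*, *Serpina3m*, *Serpina3n*, *Serpina6* and *Serpina12*, were taken by gene symbol from the 24421 genes of the deposited table. The rule uses symbols alone, but the list of symbols was drawn up with earlier results of these data known. All 10 were found. RNA-seq was performed on liver from 3 WT mice and 3 mice heterozygous for PAI-1, all on the C57BL/6 strain (C57BL/6J in the study's text), 21 weeks old by the labels and fed standard chow without restriction. The labels give the WT animals as male, and the study describes both genotypes as male and gives a slightly younger age. The study states that the heterozygotes came from a cross of *Pai-1*-/- with WT mice, and it describes the controls as littermates. Such a cross by itself gives only heterozygous pups, and how WT littermates were obtained is not stated. The allele is carried throughout the animal and is not restricted to the liver.

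The value available for each gene was the authors' mean normalized count, which is the read count divided by a size factor for the library and averaged over the libraries of both genotypes. It is referred to as the level. A second table holds 6 columns of counts, but the numbers heading them occur in no sample label. No column could therefore be given a genotype, and none was used. The authors' own fold changes and p-values were not used. No value per mouse, no SD and no comparison of WT with *Pai-1*+/- livers is therefore given, and the effect of the heterozygous allele on these serpins was not analysed here. The levels in the table summed to 30045982, and the table marks the 12971 genes with a level above 10 as within range. All 5 hepatocyte markers (*Alb*, *Apoa1*, *Ttr*, *Cps1*, *Cyp2e1*) were at 99029 or above, whereas the highest of the Kupffer cell markers was at 2374, of the endothelial markers at 1273, of the stellate cell markers at 4160, of the cholangiocyte markers at 268, of the neutrophil markers (3 of 4 in the table) at 71.5 and of the lymphocyte markers at 22.8. In bulk tissue, fewer cells of a type and less RNA per cell cannot be told apart.

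Serpins are secreted or intracellular proteins that mostly inhibit serine proteases. The target protease cuts an exposed stretch near the carboxyl end of the serpin, the reactive centre loop, and is trapped as the serpin changes shape. The sequence of the loop largely sets which protease is caught. *Serpina1* genes encode alpha-1 antitrypsin, the main plasma inhibitor of neutrophil elastase, and *Serpina3* genes correspond to alpha-1 antichymotrypsin. Humans have a single gene for each of these proteins, while the mouse carries several copies. *Serpina6* encodes corticosteroid-binding globulin and *Serpina12* encodes vaspin, an inhibitor of kallikrein 7.

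The coding sequences of the paralogs in GENCODE M21 were aligned within each family, and the window of 60 aligned bases with the fewest positions shared by all genes was located. Windows with an alignment gap were left out. The window length was chosen after the sequences had been seen, and no other length was tried. The stretches found lie near the carboxyl end of the protein, the end at which serpins carry the reactive centre loop, but the loop itself was not located here. They are printed because no window of the family had fewer positions shared by all its genes. Where windows tied, the first along the alignment was taken, as for *Serpina1*, where later windows were also at 70%. Capitals mark the positions at which the genes of the family differ.

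Serpina1a: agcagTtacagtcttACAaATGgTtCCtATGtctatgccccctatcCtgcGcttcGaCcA

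Serpina1b: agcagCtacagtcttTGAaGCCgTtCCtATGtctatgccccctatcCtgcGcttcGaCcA

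Serpina1c: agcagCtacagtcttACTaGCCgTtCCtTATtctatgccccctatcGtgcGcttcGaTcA

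Serpina1d: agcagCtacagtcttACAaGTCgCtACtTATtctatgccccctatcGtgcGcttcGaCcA

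Serpina1e: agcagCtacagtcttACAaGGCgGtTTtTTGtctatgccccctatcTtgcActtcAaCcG

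In *Serpina1a* to *Serpina1e*, 18 of these 60 bases differed in at least 1 gene. Over the whole aligned coding sequence of 1239 bases, 86 bases differed, and 93.1% were the same in all 5 genes. Pairs of the 5 genes were 96.3% to 98.5% identical over the coding sequence and 80% to 91.7% identical within the stretch. *Serpina1a* and *Serpina1c* were the most alike pair over the whole length. Within the stretch, *Serpina1c* and *Serpina1d* were the most alike at 91.7%, and *Serpina1a* and *Serpina1b* were next at 90%. *Serpina1e* was no more than 83.3% identical to any of the others there. In all 5 genes the stretch lay in the last exon and ended with 79 coding bases left before the stop codon.

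The 3 *Serpina3* genes were further apart, and their stretch is shown because it divides into a shared and a divergent portion. It borders an alignment gap.

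Serpina3k: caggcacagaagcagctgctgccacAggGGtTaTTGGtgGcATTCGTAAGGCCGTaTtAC

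Serpina3m: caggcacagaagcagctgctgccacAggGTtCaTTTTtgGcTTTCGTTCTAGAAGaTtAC

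Serpina3n: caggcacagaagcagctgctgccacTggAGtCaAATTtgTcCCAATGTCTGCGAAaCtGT

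The first 25 bases of the stretch were the same in all 3 genes, and 26 of the 60 differed in at least 1. *Serpina3k* and *Serpina3m* were 91.7% identical over the coding sequence, and *Serpina3k* and *Serpina3n* were 82.9% identical. Within the stretch these values were 78.3% and 61.7%. Between *Serpina1* and *Serpina3* genes the identity was 55.1% to 57.3% over 15 pairs. The 17 pairs with *Serpina6* or *Serpina12* were at 47.2% to 54.9%, in an alignment of all 10 members. These values describe the reference sequence and hold no measurement of expression.

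**Figure D1:**
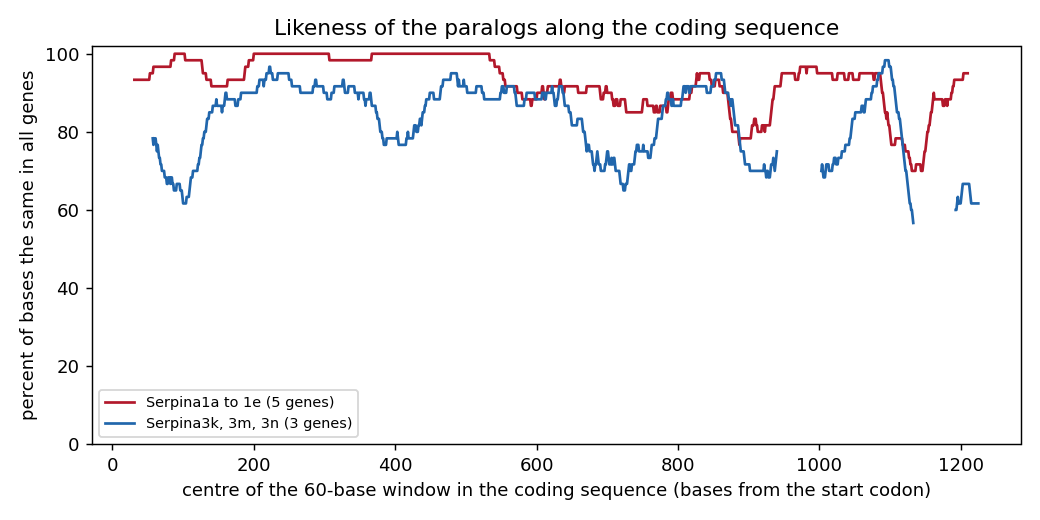
Percent of bases the same in all genes of a family (vertical axis) in windows of 60 aligned bases, by the position of the window's centre in the coding sequence (horizontal axis, bases from the start codon, counted in Serpina1b or Serpina3k). Windows with an alignment gap are left out, which breaks the Serpina3 line, and the lowest value of each line, 70% for Serpina1 and 56.7% for Serpina3, falls near the end of the coding sequence.

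The members lie in 1 cluster on chromosome 12 of GRCm38, the assembly named mm10, between positions 103646630 and 104414329, a span of 767.7 kb with 27 serpin genes and pseudogenes. *Serpina6*, the 5 *Serpina1* genes and *Serpina12* are on the minus strand and the 3 *Serpina3* genes on the plus strand. *Serpina1b* (103728156 to 103830373), *Serpina1d* (103763594 to 103773592), *Serpina1a* (103853589 to 103863562), *Serpina1c* (103894926 to 103904887) and *Serpina1e* (103946931 to 103958975) follow each other, and the annotated span of *Serpina1b* includes *Serpina1d* because 1 of its 4 transcripts starts far upstream. *Serpina3k* (104338486 to 104346144), *Serpina3m* (104338486 to 104394257) and *Serpina3n* (104406729 to 104414329) lie at the other end. Most members have 5 exons, of which 4 carry coding sequence. The exception is the reference transcript of *Serpina1a*, with 6 and 5.

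All 10 members were within range, and together they held 2.37% of the summed level of all genes. They accounted for 80.9% of the level of the 63 genes whose symbol begins with Serpin. The 5 *Serpina1* genes summed to 401217, or 1.34% of all, and made up 56.4% of the members' level. The 3 *Serpina3* genes summed to 303733, or 1.01% of all, and made up 42.7%. *Serpina6* and *Serpina12* made up the other 0.876%. The highest member exceeded the lowest 357-fold. Among the 100 highest genes of the table, a number chosen after the levels had been seen, were 5 members.

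*Serpina3k*, also known as contrapsin, had the highest level of the members at 266858. This was the 7th highest of all genes in the table and made up 0.888% of the summed level. *Apoa1* was just below it at 251501, without correction for transcript length. Per kilobase of the longest annotated transcript the order was reversed, with *Apoa1* at 242996 and *Serpina3k* at 129731. *Serpina3k* alone held 87.9% of the level of the 3 *Serpina3* members. *Serpina3n*, an inhibitor of granzyme B, was at 25477 and ranked 162nd, 10.5-fold below *Serpina3k*. *Serpina3m* was at 11398 and ranked 342nd, 23.4-fold below *Serpina3k*. Each of these levels is the authors' mean over both genotypes, and none has an error between mice.

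The *Serpina1* genes were closer to each other in level than the 3 *Serpina3* members. The *Serpina1* genes also share more sequence of the read length, as described below, and how much this moved their levels was not tested. *Serpina1e* had a level of 120855 (rank 30 of all genes) and *Serpina1b* a level of 115899.9 (rank 32), and they held 30.1% and 28.9% of the family's level. *Serpina1d* was at 65773 (rank 53) and *Serpina1c* at 61071 (rank 58), with 16.4% and 15.2%. *Serpina1a* was the lowest at 37617 (rank 104) and held 9.38%. The highest of the 5 genes exceeded the lowest 3.21-fold, against 23.4-fold among the 3 *Serpina3* members. Per kilobase of the longest transcript these values were 3.22-fold and 18.9-fold. *Serpina1f*, a further gene of the cluster that was singled out after its value was seen, was listed at 0. *Serpina1e* and *Serpina1b*, and *Serpina1d* and *Serpina1c*, differed by less than 10%. Whether such neighbours differ beyond the spread between mice was not assessed for any pair, because only the pooled mean was used.

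*Serpina6*, the plasma carrier of glucocorticoids, was at 5481 and ranked 752nd. *Serpina12*, whose product vaspin is best known from adipose tissue, was at 748 and ranked 4791st, 7.33-fold below *Serpina6*. It was the 1 member near the bulk of the expressed genes, whose median level within range was 440.4.

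**Figure D2:**
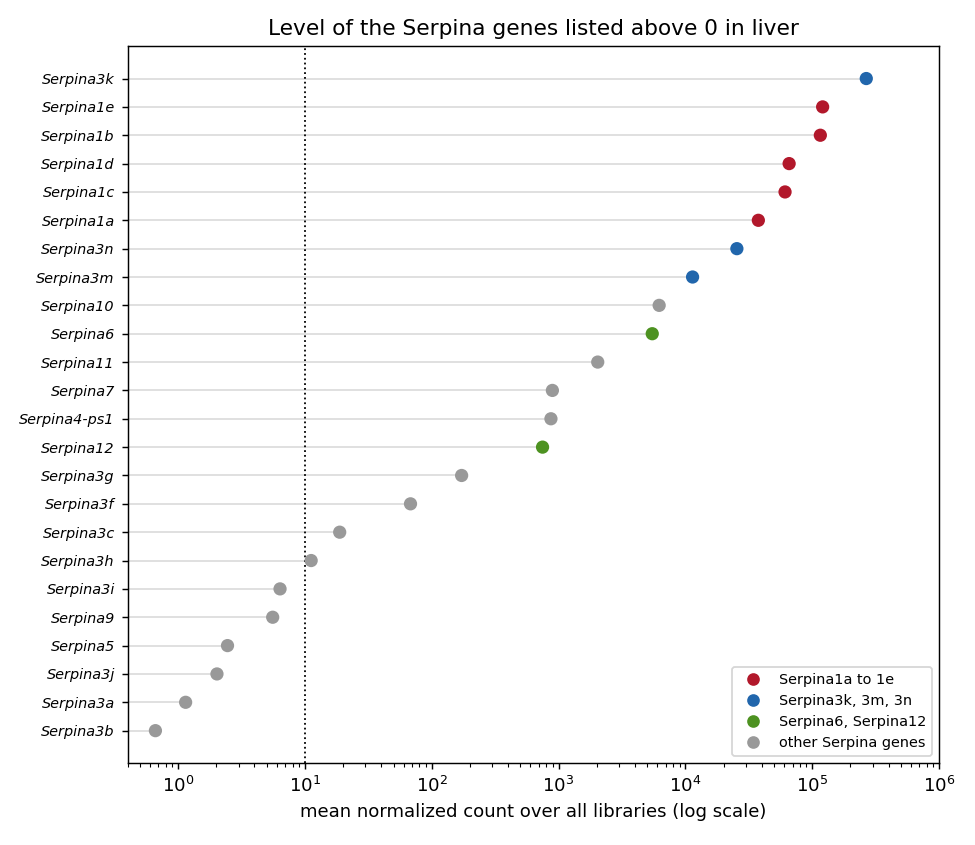
Level (horizontal axis, the authors' mean normalized count over the libraries of both genotypes, log scale) of the 24 Serpina genes listed above 0, in order of level, with 1 point per gene and no error because the value is pooled. The dotted line marks the level of 10 above which a gene is within range. The 8 highest points are Serpina1 and Serpina3 members, from 11398 to 266858, and Serpina12 is the lowest member at 748.

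Because a longer transcript gives more reads, levels of different genes were also compared per kilobase of the longest annotated transcript. *Serpina3k* again came first, at 129731 per kilobase, and ranked 11th among the 23334 genes with a length. Its rank was 19 per kilobase of the mean transcript length and 7 by the level as deposited. *Serpina1e* followed at 76733 and *Serpina1b* at 65777. *Serpina1d* (47183 per kilobase), *Serpina1c* (44873 per kilobase) and *Serpina1a* (23793 per kilobase) kept their order. *Serpina3n* was at 12343, *Serpina3m* at 6871, *Serpina6* at 3415 and *Serpina12* at 203 per kilobase. The *Serpina12* transcript, at 3690 bases, is the longest of the members, and the gap between *Serpina6* and *Serpina12* widened from 7.33-fold to 16.8-fold, or to 27.6-fold with the mean length over all transcripts. With the mean length over all transcripts in place of the longest, *Serpina1b* (88271 per kilobase) passed *Serpina1e* (84219 per kilobase), so the order of these 2 genes depended on which transcripts were counted.

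The other serpins of liver provide the setting. Of a list of 15 further clade A genes, which does not include *Serpina1f*, 14 were in the table and 8 were within range. The highest were *Serpina10*, the protein Z-dependent inhibitor of factor Xa, at 6214, *Serpina11* at 2038, *Serpina7*, the carrier of thyroxine, at 895, the pseudogene *Serpina4-ps1* at 871 and *Serpina3g* at 172. The lowest on the list were *Serpina3j* at 2.03, *Serpina3a* at 1.15 and *Serpina3b* at 0.664. The median level was 15.0 in this list and 49344 among the members. The members were chosen as clade A serpins secreted by liver, so how the lists were drawn favours a higher median among the members. Neighbours on the chromosome could differ widely, as *Serpina3j* lies next to *Serpina3k*.

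Per kilobase, 5 serpins of other clades that liver secretes were below the *Serpina1* genes. *Serping1*, the C1 inhibitor, was the highest of these at 17873 per kilobase, followed by *Serpinf2*, which encodes alpha-2 antiplasmin, at 13048, and *Serpinc1*, which encodes antithrombin, at 12250. *Serpinf1* was at 9978 and *Serpind1*, which encodes heparin cofactor II, at 7157 per kilobase. Other members were not above these serpins. *Serpina3n*, at 12343 per kilobase, was below *Serping1* and *Serpinf2*, and *Serpina3m*, *Serpina6* and *Serpina12* were below all 5. Among 13 other secreted hepatocyte proteins the median was 94854 per kilobase, and *Alb*, which encodes albumin, reached 1059757. *Serpina3k* was above that median, and the other 9 members were below it.

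**Figure D3:**
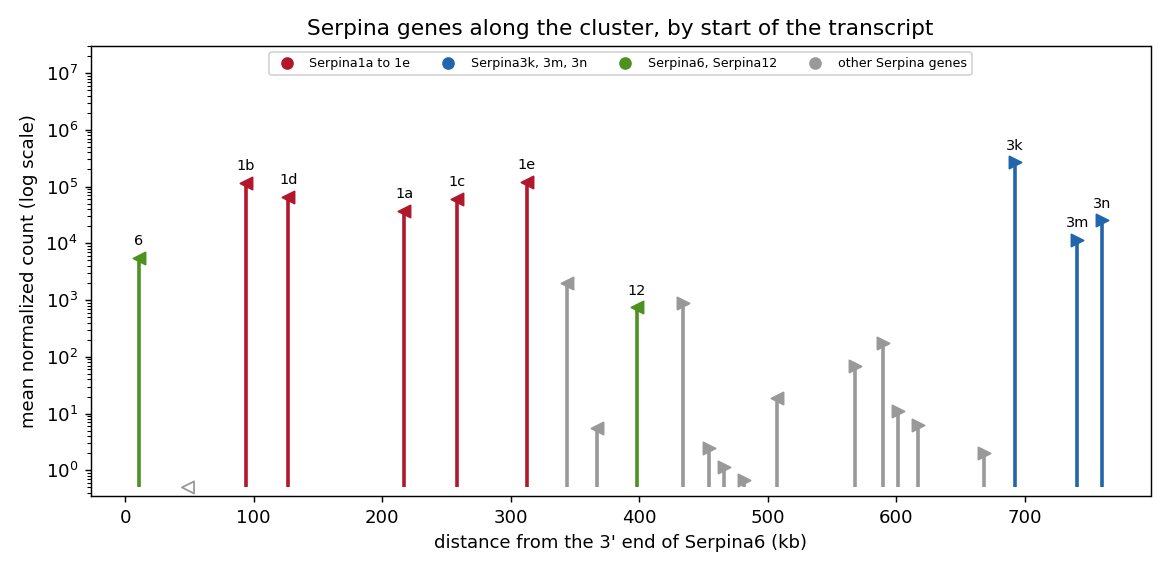
Level (vertical axis, mean normalized count over both genotypes, log scale) of the 23 serpin genes of the cluster that are in the table, by the start of the transcript along the cluster (horizontal axis, kb from the 3′ end of Serpina6). Arrowheads give the strand, and the hollow arrowhead at the bottom is Serpina1f, listed at 0. The Serpina1 genes stand between 37617 and 120855 in the left part, the Serpina3 members between 11398 and 266858 at the right end, and the genes between Serpina1e and Serpina3k are all at 2038 or lower.

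Near-identical paralogs can share reads, which bears on each single level. Reads were 75 bases long, so each member's annotated transcripts were cut into all words of 75 bases, and the words that transcripts of another gene also hold were counted on both strands. *Serpina1c* had 73.6% of its 1287 words in another gene, and *Serpina1a* had 49.3% of 1820. The share was 37.1% for *Serpina1d*, 19.7% for *Serpina1e* and 19.0% for *Serpina1b*. With words of 50 bases these shares were 79.3%, 57.6%, 50.9%, 34.6% and 29.5%, in the same order of genes. With the longest transcript only they were 71.3%, 57.5%, 37.1%, 19.9% and 25.1%. A core of 244 words of 75 bases occurred in all 5 genes. *Serpina1a* and *Serpina1c* shared 809 words, the most of any pair, which is 44.5% of the words of the former and 62.9% of the words of the latter. How the authors assigned reads that match several genes is not given in the sources used here. The single levels of all 5 *Serpina1* genes, and their order, are therefore uncertain. The shares were largest for *Serpina1c* and *Serpina1a*. The sum over the 5 *Serpina1* genes is not altered by reads placed on the wrong one of them, but would be by reads that were discarded or placed on *Gm8893*, which holds words of all 5, or on *B430119L08Rik*, which holds 262 words of *Serpina1c*, 144 of *Serpina1a* and 31 of *Serpina1d*. How much this moved the levels was not tested.

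The *Serpina3* genes were more distinct. *Serpina3k* shared 146 words with *Serpina3m*, or 7.36% of its own and 9.21% of those of *Serpina3m*. *Serpina3n* shared 1.46% of its words, with *Serpina3e-ps* and *Serpina3g*. Counting words held by any other gene, the share of *Serpina3m* was 9.65%. With words of 50 bases such shares were 14.0% for *Serpina3k*, 19.1% for *Serpina3m* and 6.90% for *Serpina3n*, and with words of 100 bases they were 4.85%, 6.09% and 0.204%. *Serpina6* and *Serpina12* shared 0 words with any other gene. In the annotation, *Serpina3k* and *Serpina3m* also have 60 exonic bases in common, because 1 of the 2 transcripts of *Serpina3m* starts at the *Serpina3k* start. *Serpina1c* overlaps 429 exonic bases of *B430119L08Rik* on the other strand, which reads could not separate if strand was not used.

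**Figure D4:**
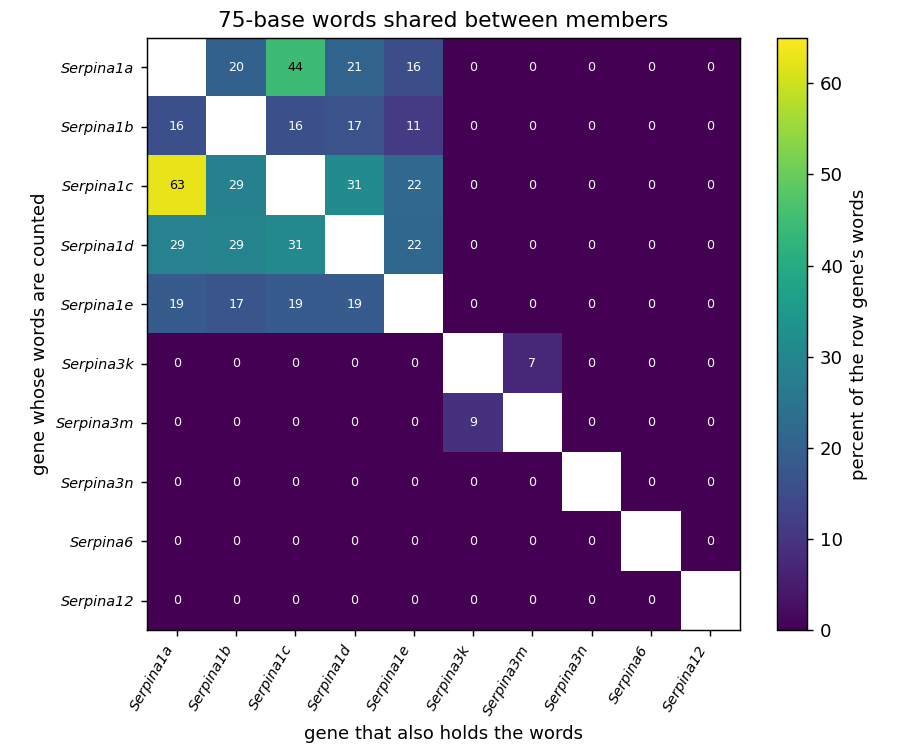
Percent of the 75-base words of each member (rows) that also occur in another member (columns), rounded to whole percent. Sharing between members runs from 11 to 63% within the Serpina1 block and is 7 and 9% for the Serpina3k and Serpina3m pair, and the other pairs of members are at 0%.

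Promoter sequences from RefSeq on GRCm38.p6, 250 bases before to 50 after the start, were matched for 7 members by symbol. *Serpina3k*, *Serpina3m* and *Serpina6* had no entry. The promoters of the 5 *Serpina1* genes had a run of 59 bases in common, which is shown because it was the longest stretch that all 5 share. Capitals mark GTTAAT, the half-site of the hepatocyte factor HNF1. The motifs were chosen after these promoters had been seen, GTTAAT among them, so the counts are a description only.

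Serpina1 shared run: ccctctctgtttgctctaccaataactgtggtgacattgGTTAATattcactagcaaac

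In *Serpina1b* this run lies at chr12:103738196-103738254 and in *Serpina1e* at chr12:103956956-103957014, both on the minus strand. It ends 6 and 58 bases before the annotated start, respectively. The distance was 1 base in *Serpina1a* and 7 in *Serpina1c*, and in *Serpina1d* the run reaches past the start. Of the 32851 promoters in the table, 5 hold the run on either strand, which are those of the 5 *Serpina1* genes. GTTAAT on either strand was in 5 of the 7 member promoters, those of *Serpina1a* to *Serpina1e*, and in 7.10% of all promoters. The run shared by these 5 promoters holds it, so the 5 matches are not separate observations. The full palindromic HNF1 site, which contains the half-site, was in 0 of the 7 and in 0.00913% of all promoters. TATAAA was in 0 of the 7 and in 13.6% of all. TTCNNNGAA, the STAT site, was in 0 of the 7 and in 8.30% of all. A match describes the letters in the window and is not a site of binding.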

How the data were processed

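Total RNA from liver was made into KAPA mRNA libraries, sequenced as 75-base single-end reads and aligned by the authors to mm10 with STAR, and genotypes were compared with DESeq2 in the RNA Express BaseSpace application. The labels' processing notes also name HOMER. Tool versions, the gene annotation and the strand setting are not given in the sources used here. The signal used is the authors' deposited mean normalized count per gene, pooled over WT and *Pai-1*+/- libraries. The same table holds the authors' fold changes, standard errors, Wald statistics and p-values, which were not used. A table of counts was also deposited, and its 6 columns could not be matched to a sample. The planned edgeR test could therefore not be run, and no test is reported.

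Computed here were shares, ranks, levels per kilobase, shared words of 75 bases and coding sequence identity (MAFFT 7.526), with GENCODE M21 on GRCm38. A length was found for 95.5% of genes and for all 10 members. The level counts and the word counts have no error between mice, and no depth per sample is given. The word count and the identity were tested on made sequences. All members are named, and of other lists at most the 5 highest and 3 lowest genes by level. A gene of the list of other-clade serpins is not reported here. The members and lists were chosen with earlier results of these data known. The reference transcript of a gene is that with the most coding bases. Scripts ran under Python 3.11.15 with pandas 2.3.3 and NumPy 2.4.6 for tables, SciPy 1.17.1 for intervals and, for plots, Matplotlib 3.10.9. Alternatives were word lengths of 50 and 100, the longest transcript only, the same strand only, the mean transcript length, genes within range and removal of the 10 highest genes.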

Additional observations from a re-analysis of the deposited data

How the results depend on the processing

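The members' share of the summed level was 2.37%, and it was 1.78% without the 10 highest genes, which include *Serpina3k*, 3.11% per kilobase of the longest transcript and 2.04% per kilobase of the mean transcript length. The number of members among the 100 highest genes was 5, and 6 per kilobase under either length. Keeping only genes within range also gave 5, but this could not differ, because it removes only genes with lower levels. Of the pooled words of *Serpina1a* to *Serpina1e*, 37.1% occurred in another gene. This was 47.9% with words of 50 bases, 31.6% with words of 100 bases, 41.0% with the longest transcript only and 36.0% on the same strand only, an alternative chosen after seeing the data. The lowest identity of a pair was 96.3% for *Serpina1* and 82.9% for *Serpina3* over the coding sequence, and 80% and 61.7% in the least alike stretch, also chosen after seeing the data. For single members, 20 of 30 ranks moved with the setting, any change of place counting as a move. The 10 that did not move were those among genes within range, a setting that cannot change them. Of the shares of words, 19 of 40 moved outside the exact 95% binomial interval of the main share. That interval treats overlapping words as independent draws, and the shares of *Serpina6* and *Serpina12* were 0 in every setting. The edgeR comparison of genotypes, its alternatives with DESeq2, other filters and summed paralogs, the fits that leave out each replicate and the protein alignment were not run. No paired analysis was possible because the count columns carry no replicate number of the labels. The pooled mean carries no spread between mice and no depth per library. The count columns were not used, so no difference between 2 members was set against replicate error.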
